A study of Drosophila melanogaster with 15 samples.

Results

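The comparison sets the 6 libraries labelled dpp RNAi against the 6 libraries of both control groups, 12 of the 15 libraries of the series. Membership was taken from the sample titles alone, and no measured value entered it. The series asks how Dpp made by muscle acts on feeding and on dopamine in the brain of Drosophila melanogaster. The groups were dpp RNAi construct #1, dpp RNAi construct #2, control RNAi and control, each with 3 libraries, and all of them share the strain background w1118. Each sample was stranded total RNA of a dissected tissue labelled skeletal muscle. The treatment label reads RNAi in every library, control included. The labels do not give the driver of the RNAi, the age or sex of the flies, or whether libraries of a group came from separate animals, so every p-value here measures only the spread between libraries. The quantity tested was the mean of both dpp RNAi groups minus the mean of both control groups, with each group fitted on its own, so that a positive log2 fold change means higher with dpp RNAi.

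Dpp (Decapentaplegic) is a secreted ligand of the bone morphogenetic protein (BMP) family. It binds receptor pairs of a type I subunit (Tkv or Sax) and a type II subunit (Put or Wit), which phosphorylate the transcription factor Mad. Mad then enters the nucleus with its partner Medea and changes the activity of target genes. RNAi lowers a transcript through short RNAs cut from a matching double-stranded RNA.

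Gene counts per library, in units of 1e6, were 11.24 to 18.08 with construct #1 and 16.72 to 22.4 with construct #2, against 31.77 to 33.29 in control RNAi and 36.81 to 53.33 in control. The dpp RNAi libraries were thus the shallower ones. Sarcomere genes, which mark muscle, took 1.11 to 1.82% of gene counts in the dpp RNAi libraries, against 0.663 to 0.684% in control RNAi and 1.41 to 1.56% in control. Genes of light detection and of the lens, which mark the eye, took 8.69 to 9.51% with construct #1 and 7.26 to 8.15% with construct #2, against 8.52 to 9.11% in control RNAi and 8.55 to 9.35% in control. RNA of the eye was therefore counted in all 12 libraries beside that of muscle, and the eye list took the larger share. Markers of neurons and glia were counted too, with elav at 158 to 254 and repo at 53.4 to 75.8 counts per 1e6 after TMM scaling. Levels below are those of this mixture, not of muscle alone. In such bulk samples, fewer cells of a type and less RNA per cell cannot be told apart. Within the library codes, both dpp RNAi groups carry 1 number block, control RNAi another and control yet another. The labels do not say what the block is, and block and group cannot be told apart.

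The targeted gene was examined first. dpp had 29.4, 31.4 and 33.7 CPM (counts per 1e6, after TMM scaling; lowest, median and highest of 6 libraries, as in all such triplets here) in the libraries labelled dpp RNAi, against 29.3, 32.7 and 35.1 CPM in the controls. The groups overlapped over nearly their whole range. The log2 fold change was -0.04 ± 0.09 (SE; edgeR adjusted p = 0.752), and an exact two-sided permutation test of 6 against 6 libraries gave p = 0.519, where the smallest possible p is 0.00216. Against control RNAi alone the value was 0.00 and against control alone it was -0.08. A lower dpp level was not detected in the RNA of the whole tissue, and directions below refer to the labels.

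Some genes of the larval body were among those with the largest differences. Several genes for proteins of the larval cuticle were higher with dpp RNAi and nearly absent from the controls. Fbp1, Fbp2 and Lsp1gamma, of the larval storage protein list, were higher too, while the abundant Lsp1beta and Lsp2 overlapped the controls. A pair of neighbouring genes, a lens protein gene and an insulin-like peptide gene were lower. Of 10668 tested genes, 3621 (33.9%) passed an adjusted p under 0.05 (edgeR quasi-likelihood test, Benjamini-Hochberg), with 1858 (17.4%) higher and 1763 (16.5%) lower. Most differences were small, with a median size of 0.24 on the log2 scale among called genes, and 291 called genes (2.73%) differed by at least 2-fold, 234 (2.19%) higher and 57 (0.534%) lower. More genes were called between the controls than between the constructs: 4823 genes (45.2%) were called between control RNAi and control, and 1283 between construct #1 and construct #2, of which 605 (5.67%) were higher with construct #1 and 678 (6.36%) lower. The control libraries were deeper, and only the constructs share a number block, so these counts do not rank the size of the differences. In 1607 called genes (15.1% of those tested), the difference between the controls was larger than the averaged difference itself.

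A stricter reading was therefore kept beside each call. In 759 genes (7.11%) the call held and every dpp RNAi library lay on 1 side of every control library. Of these, 314 (2.94%) were higher and 445 (4.17%) lower, and they are called separated genes below. Of the 759, 645 were also called against each control alone, and 593 with each construct alone, while 183 (1.72% of tested genes) were called between the controls too. Over all tested genes, 38.9% were called against control RNAi and 35.0% against control, and 18.9% with construct #1 (10.6% higher, 8.29% lower) and 37.0% with construct #2. The median size of a separated difference was 0.29, and 67 separated genes (0.628%) were at least 2-fold higher, against 20 (0.187%) at least 2-fold lower. When both groups of a class were pooled, so that the gap between the controls counted as spread, 1219 genes were called and 708 of the 759 separated genes were among them. Separated genes were selected on these same values, which favours their call in the pooled fit. Genes named below that were not called in that fit included CG11313, CG14607, CG10943, CG16826, whe, CheA86a, CheA56a, ppk23, Lsp1beta, Antp and Ubx. Others were InR, salr, tup, Actbeta, b, Pu, DopEcR, Cyp6a17, Cyp6a2, tobi and Lsd-1, all overlapping like those before. Jon65Aiv, Ir92a, Ir76a, Desat1, Eip93F and Pdp1 were not called in it either.

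**Figure D1:**
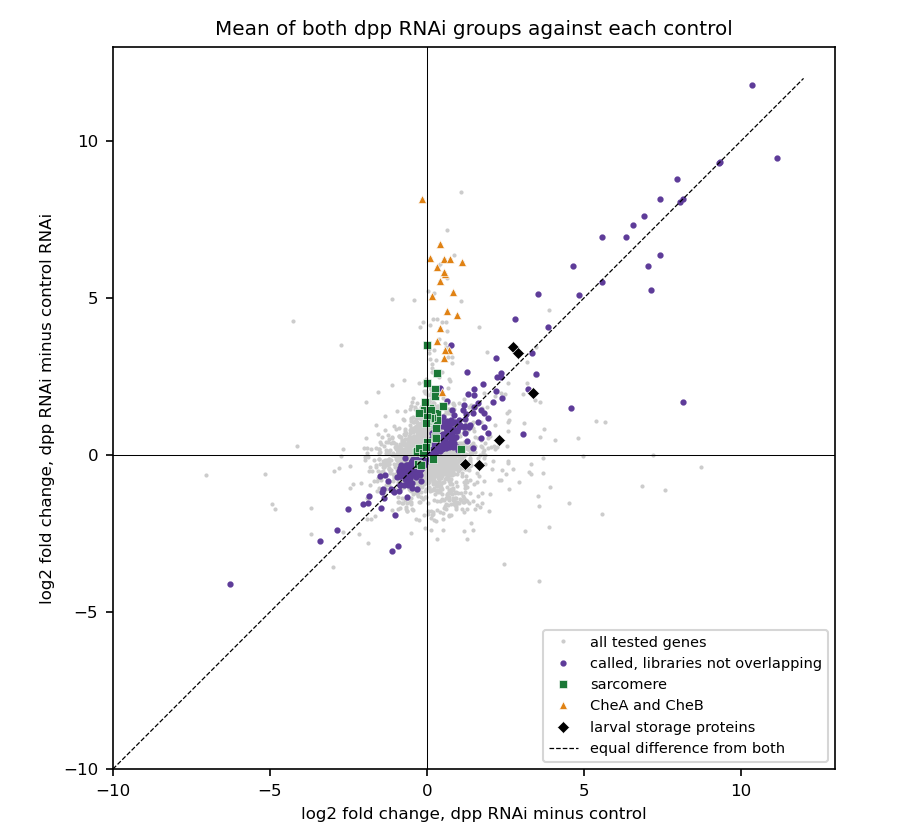
Log2 fold change of the mean of both dpp RNAi groups against control RNAi (vertical axis) and against control (horizontal axis) for 10668 tested genes, each a point. Separated genes lie along the dashed line of equal difference, while CheA and CheB genes (median 5.39 against control RNAi and 0.55 against control) and sarcomere genes (1.11 and 0.03) stand close to the vertical axis.

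Larval cuticle genes were among those with the largest differences. The insect cuticle is a layer of chitin and protein laid down by the epidermis, and the Lcp genes encode proteins first found in the cuticle of larvae. Lcp1 had 31.7, 56.5 and 74.0 CPM with dpp RNAi and 0.0621, 0.142 and 0.33 CPM in the controls, a log2 fold change of 8.38 ± 0.23 (adjusted p = 6.86e-11). Lcp3 had 13.7, 32.1 and 52.2 CPM with dpp RNAi and 0.109, 0.218 and 0.434 CPM in the controls (6.91 ± 0.18, adjusted p = 5.45e-12). For both genes the lowest dpp RNAi library was far above the highest control library.

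Lcp4 reached 24.6, 42.4 and 54.6 CPM with dpp RNAi, against 0, 0.0286 and 0.0925 CPM in the controls (10.31 ± 0.32, adjusted p = 2.47e-10). Lcp2 was represented by 1328 counts in the 6 dpp RNAi libraries and by 1 count in the 6 control libraries, a ratio of 3340 with a 95% counting interval of 598 to 132000. Lcp1, Lcp2, Lcp3 and Lcp4 are neighbours on arm 2R and formed the longest run of adjacent separated genes. The near-identical genes Lcp65Ab1 and Lcp65Ab2 on 3L, whose reads the counting could have divided between them, had 242 and 252 counts with dpp RNAi and 0 counts in all controls. They were at least 203-fold and 211-fold higher, taking 3 counts over the 6 control libraries as the limit that a count of 0 allows. These intervals and limits cover counting error only.

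Genes with the chitin-binding Rebers-Riddiford domain (the Cpr family) shared the pattern in part. Cpr49Ac had 28.3 and 22.9 CPM on average with construct #1 and construct #2, against 0.553 CPM in control RNAi and 0.532 CPM in control, with no overlap between libraries and a log2 fold change of 5.54 ± 0.20 (adjusted p = 3.11e-10). Its nearby relatives on 2R, Cpr49Ab and Cpr49Ae, were at 0.32 and 0.02, neither called. Cpr78E had 4.69, 7.31 and 8.75 CPM with dpp RNAi against 0.0262, 0.0319 and 0.0724 CPM in the controls (7.27 ± 0.25, adjusted p = 1.44e-11). Pcp, a pupal cuticle protein gene within an intron of another gene, stood at 2.25, 3.0 and 4.68 CPM against 0.339, 0.556 and 0.652 CPM in the controls (2.48 ± 0.20, adjusted p = 3.15e-07).

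Uncharacterised genes reached differences of similar size. CG42500 had 10.6, 28.6 and 36.7 CPM with dpp RNAi and 0.0308, 0.111 and 0.21 CPM in the controls, without overlap (7.79 ± 0.35, adjusted p = 1.65e-08). CG15308 (6.95 ± 0.48, adjusted p = 7.21e-08) and CG32249 (6.65 ± 0.29, adjusted p = 2.1e-10) were separated at lower levels, with medians of 2.45 and 3.45 CPM with dpp RNAi against 0 and 0.0309 CPM in the controls. CG42500, CG15308 and CG32249 may have passed the filter on low counts only through the dpp RNAi libraries, in which case they had to differ.

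The difference did not extend to all cuticle genes. Of 121 genes in the cuticle families, 49 passed the filter on low counts, 15 were called higher and 4 lower, and the median log2 fold change was 0.16. Among the 49, 11 were separated upward and 1 downward. Over all tested genes, 17.4% were called higher and 16.5% lower, while 2.94% were separated upward and 4.17% downward. The separated lower one was Cpr72Ec, with 165, 181 and 190 CPM with dpp RNAi against 226, 289 and 346 CPM in the controls (-0.68, adjusted p = 0.00267). A member that passed the filter only through the group where it is high had to differ, so the counts over tested members describe those members alone.

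In the list of larval storage proteins, all 6 genes were called higher, with a median log2 fold change of 2.03, where 17.4% of all tested genes were. The list holds Fbp1 and Fbp2 beside the Lsp genes, whose proteins the fat body makes and stores in larval blood as a reserve for the adult. Fbp1, the receptor by which the fat body takes these proteins back up, had 1.79, 2.44 and 3.6 CPM with dpp RNAi and 0.131, 0.313 and 0.44 CPM in the controls (3.09 ± 0.21, adjusted p = 5.38e-08). Lsp1gamma had 0.859, 1.78 and 3.25 CPM with dpp RNAi, against 0.131, 0.317 and 0.463 CPM in the controls (2.68 ± 0.25, adjusted p = 1.89e-06). Fbp2, at 0 to 0.0925 CPM in the controls, was the third separated gene of the list (3.08). It may have passed the filter only through the dpp RNAi libraries, in which case it had to differ. In Fbp1, Lsp1gamma and Fbp2 the dpp RNAi libraries stood clear of all controls.

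Lsp1beta, by contrast, had 290, 352 and 456 CPM with dpp RNAi and 109, 254 and 481 CPM in the controls. Its call (0.69 ± 0.09, adjusted p = 7.51e-05) averaged -0.30 against control RNAi and 1.67 against control. Lsp2, the most abundant of the list with a median of 2026 CPM with dpp RNAi and 769 CPM in the controls, showed 0.48 against control RNAi and 2.29 against control. Of 16 tested fat body markers, 4 were higher and 2 lower, with a median of 0.0, where 17.4% and 16.5% of all tested genes were. The 4 were Fbp1, which both lists hold, the glucosidase gene tobi (0.47 against control RNAi, 4.08 against control), apolpp (-0.11 and 0.69) and Lsd-1 (0.11 and 0.38).

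**Figure D2:**
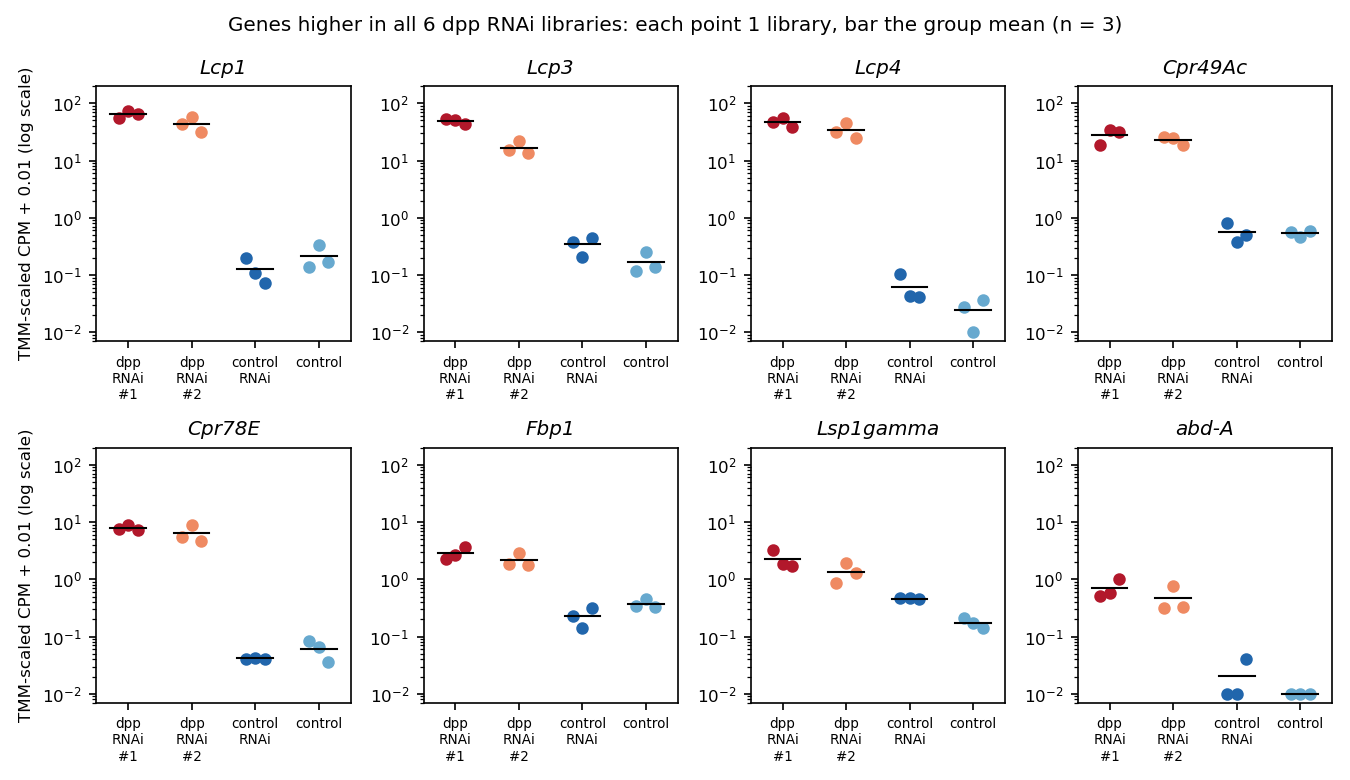
TMM-scaled CPM plus 0.01 on a log scale for 8 separated genes that were higher with dpp RNAi, 1 point per library and a bar at the mean of each group of 3. Lcp1 lies at 31.7 to 74.0 CPM with dpp RNAi and at 0.0621 to 0.33 CPM in the controls, and abd-A at 0.307 to 0.991 CPM and at 0 to 0.031 CPM.

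The Hox genes assign identity to body segments along the head-to-tail axis. Of 7 tested members, 4 were called higher and 0 lower, where 17.4% and 16.5% of all tested genes were. abd-A, which specifies abdominal segments, was at 0.307, 0.533 and 0.991 CPM with dpp RNAi and at 0, 0 and 0.031 CPM in the controls (adjusted p = 1.15e-05). These levels rest on 52 counts in the 6 dpp RNAi libraries and 1 count in the 6 control libraries, a ratio of 131 with a 95% counting interval of 22.4 to 5260. Every dpp RNAi library held abd-A reads, while 5 of the 6 control libraries held none. abd-A may have passed the filter on low counts only through the dpp RNAi libraries, in which case it had to differ.

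Ubx, the next gene on 3R, had 1.04, 3.69 and 7.18 CPM with dpp RNAi against 0.247, 1.3 and 2.71 CPM in the controls (2.30 ± 0.35, adjusted p = 0.000284). Its libraries overlapped, and the log2 fold change was 3.96 against control RNAi and 0.64 against control. Antp, a gene of the thorax, averaged 11.8 CPM with construct #1 and 14.0 CPM with construct #2, against 2.96 CPM in control RNAi and 9.78 CPM in control (1.26 ± 0.19, adjusted p = 0.000266), again with overlap. Scr, the remaining member called higher, was at 0.35 ± 0.08 (adjusted p = 0.00232) with overlap, 0.57 against control RNAi and 0.14 against control. The head genes lab, pb and Dfd stood at 0.01, -0.11 and -0.03, none of them called.

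Genes of humoral immunity, the secreted antimicrobial peptides and the recognition proteins that switch them on, were more often higher than lower: 21 of 50 tested were called higher and 2 lower, with medians of 0.30 against control RNAi and 0.23 against control. Over all tested genes, 17.4% were called higher. Drs, an antifungal peptide of the Toll pathway, had 9.1, 15.1 and 22.5 CPM with dpp RNAi and 4.78, 6.51 and 8.63 CPM in the controls (1.17 ± 0.11, adjusted p = 3.9e-06). PGRP-SD, a secreted sensor of bacterial peptidoglycan, had 18.3, 24.0 and 26.6 CPM with dpp RNAi against 6.33, 11.2 and 17.4 CPM in the controls (1.15 ± 0.10, adjusted p = 2.63e-06). Neither gene had a dpp RNAi library within the range of the controls.

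BomT2 (CG16836), of the Bomanin family of Toll-induced peptides, had 138, 180 and 209 CPM with dpp RNAi and 81.3, 100 and 108 CPM in the controls (0.86 ± 0.09, adjusted p = 1.56e-05). It forms, with BomS5 and BomS6, a run of 3 adjacent separated genes on 2R, and reads of these similar genes could have been divided in ways the files do not show. The antibacterial peptide Dro (1.51) and Listericin (0.87) were separated as well. The Attacins AttA (1.42), AttB (0.50) and AttC (1.16) were called but overlapped. The receptor Tl itself was lower by a small amount and separated, with 96.8, 104 and 109 CPM with dpp RNAi against 113, 116 and 120 CPM in the controls (-0.17, adjusted p = 0.00063). Haemocyte markers moved partly with this list, with 5 of 11 tested higher and 0 lower, where 17.4% and 16.5% of all tested genes were. Their summed levels were 826 to 1306 CPM with dpp RNAi against 806 to 1001 CPM in the controls, and their part in the result was not tested.

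Genes of the respiratory chain and ATP synthase, which make ATP in mitochondria, were higher by small amounts in most members: 57 of 72 tested were called higher and 1 lower, with a median of 0.31. Of the 72, 12 were separated, all upward. Over all tested genes, 17.4% were called higher, 16.5% lower and 2.94% were separated upward. ND-B17 (l(2)35Di), a subunit of complex I, had 83.8, 93.6 and 99.1 CPM with dpp RNAi against 53.0, 64.5 and 76.2 CPM in the controls (0.53 ± 0.05, adjusted p = 2.28e-06). SdhD (CG10219), of complex II, had 118, 139 and 144 CPM with dpp RNAi against 71.7, 99.2 and 117 CPM in the controls (0.50 ± 0.06, adjusted p = 3.48e-05). The median of the list was 0.49 against control RNAi and 0.10 against control, where 16 of the 72 were called higher (16.7% of all tested genes were).

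Sarcomere genes behaved in the same lopsided way. Of 34 tested, 24 were called higher and 1 lower, with a median of 0.59, but 1 alone was separated. Over all tested genes, 17.4% were called higher, 16.5% lower and 7.11% were separated. The median was 1.11 against control RNAi and 0.03 against control. sls, which encodes the giant titin-like proteins of the sarcomere, had 1070, 1743 and 2138 CPM with dpp RNAi against 529, 780 and 1268 CPM in the controls (1.05 ± 0.12, adjusted p = 4.88e-05). Its value was 1.57 against control RNAi and 0.53 against control. Summed over the list, the level was 11355 to 18698 CPM with dpp RNAi, 6909 to 7065 CPM in control RNAi and 13593 to 15095 CPM in control, so the dpp RNAi libraries spanned those of control. The sarcomere share moved with the respiratory-chain values across groups, and its part in them was not tested.

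CheA and CheB genes, small secreted proteins of taste hairs of which some take part in pheromone sensing, were the extreme case. All 20 were called higher, with a median of 3.00, and 0 of the 20 were separated, where 17.4% and 7.11% of all tested genes were. CheA56a had 1.12, 2.76 and 3.37 CPM with dpp RNAi against 0.031, 0.599 and 1.68 CPM in the controls, with log2 fold changes of 5.21 against control RNAi and 0.82 against control. Summed, the family had 161 to 619 CPM with dpp RNAi, 11.9 to 20.9 CPM in control RNAi and 232 to 317 CPM in control. Against control alone, 2 of the 20 were called higher (16.7% of all tested genes were). The channel gene ppk23, active in taste neurons that sense pheromones, followed with 3.14 against control RNAi and 0.69 against control (averaged 1.92 ± 0.23, adjusted p = 5.92e-05).

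The 6 overlapping called genes with the widest gap between the controls show what an averaged difference can hold. CG11313 had 69.5 to 90.9 CPM with dpp RNAi, 95.1 to 99.8 CPM in control RNAi and 0.127 to 0.236 CPM in control. Its averaged log2 fold change of 4.17 ± 0.07 (adjusted p = 2.41e-15) is the mean of -0.37 against control RNAi and 8.72 against control. CG14607 had 4.33 to 49.6 CPM with dpp RNAi, 0.031 to 0.0656 CPM in control RNAi and 7.4 to 9.85 CPM in control, with 8.39 and 1.10 against the 2 controls. CheA86a shared the form of CG14607, while CG10943, CG16826 and whe (CG1678) shared that of CG11313, at -0.01, -0.99 and -1.10 against control RNAi and 7.22, 6.85 and 7.58 against control. The averaged call of whe (adjusted p = 0.0498) was lost without any 1 of 10 libraries (adjusted p up to 0.115), and that of CG16826 (adjusted p = 0.0288) without any 1 of 7 (up to 0.0699).

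**Figure D3:**
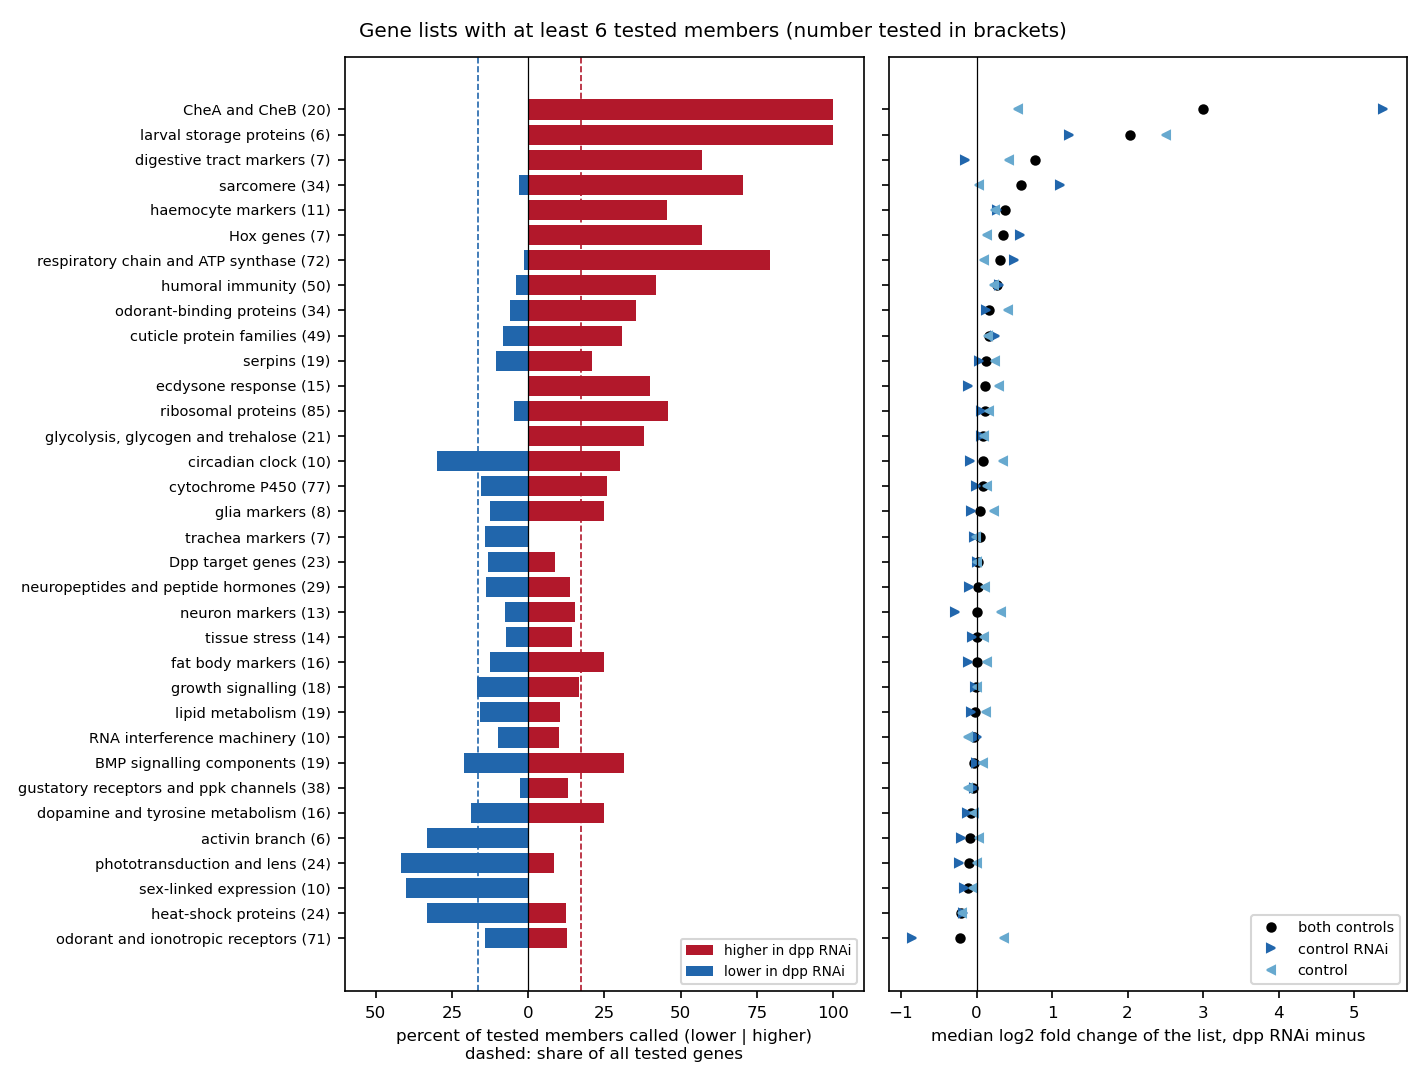
Left, percent of tested members called higher (right of 0) and lower (left of 0) with dpp RNAi in each list of at least 6 tested members, with dashed lines at 17.4% and 16.5% for all tested genes. Right, median log2 fold change of each list against both controls, control RNAi and control, where 20 CheA and CheB genes lie at 3.00, 5.39 and 0.55 and 50 immune genes at 0.27, 0.30 and 0.23.

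Genes of cytosolic protein synthesis and sugar breakdown showed small differences. Of 85 ribosomal protein genes tested, 39 were called higher and 4 lower, 11 were separated upward and the median was 0.11. Over all tested genes, 17.4% were called higher, 16.5% lower and 2.94% were separated upward. RpS26 had 923, 996 and 1090 CPM with dpp RNAi against 691, 783 and 889 CPM in the controls (0.36 ± 0.04, adjusted p = 2.4e-05). RpL29 had 393, 415 and 442 CPM with dpp RNAi against 304, 310 and 353 CPM in the controls (0.38 ± 0.05, adjusted p = 6.39e-05). Both stood clear of the controls in all libraries. Against control RNAi and control, RpS26 was at 0.22 and 0.50 and RpL29 at 0.33 and 0.43.

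Of 21 genes of glycolysis, glycogen and trehalose, 8 were called higher and 0 lower, where 17.4% and 16.5% of all tested genes were. Pgk, a glycolytic kinase that yields ATP, had 303, 309 and 324 CPM with dpp RNAi against 232, 242 and 259 CPM in the controls (0.36 ± 0.04, adjusted p = 3.39e-06), with 0.37 and 0.35 against the 2 controls. Tpi, of an earlier step, had 298, 334 and 345 CPM with dpp RNAi against 246, 260 and 274 CPM in the controls (0.33 ± 0.04, adjusted p = 5.06e-05). The separation of both genes was complete.

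Among the separated lower genes with a mean of at least 1 CPM, a pair of neighbours on 2L had the largest differences. Cks30A, a small subunit that binds cyclin-dependent kinases and is known for its part in meiosis, had 0.798, 1.66 and 2.34 CPM with dpp RNAi and 9.84, 12.6 and 17.8 CPM in the controls (-3.08 ± 0.16, adjusted p = 8.35e-09). CG17005, the adjacent gene, had 8.77, 15.1 and 19.6 CPM with dpp RNAi against 71.7, 83.4 and 112 CPM in the controls (-2.61 ± 0.08, adjusted p = 3.8e-11). The genes on either side of the pair, Ggamma30A (0.08) and Eaat1 (0.00), were not called. The pair was lower with each construct, and CG17005 was lower with construct #2 (8.77 to 12.5 CPM) than with construct #1 (17.8 to 19.6 CPM; adjusted p = 0.00113 between constructs).

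Light detection and lens genes were more often lower than higher: 10 of 24 tested were called lower and 2 higher, while 16.5% of all tested genes were called lower. retinin, a protein of the corneal lens surface, had 252, 272 and 282 CPM with dpp RNAi against 540, 580 and 632 CPM in the controls (-1.10 ± 0.10, adjusted p = 5.09e-06). ninaG, an oxidoreductase that makes the visual chromophore, had 39.9, 43.6 and 46.2 CPM with dpp RNAi against 58.1, 65.8 and 73.2 CPM in the controls (-0.61 ± 0.05, adjusted p = 7.53e-07). trpl, a cation channel of photoreceptors, had 4369, 4577 and 5135 CPM with dpp RNAi against 5872, 6378 and 6709 CPM in the controls (-0.43 ± 0.04, adjusted p = 3.95e-06).

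These 3 genes and inaC (-0.32) were separated. The list as a whole depended on the control: 18 members were lower and 0 higher against control RNAi, while 7 were lower and 7 higher against control. Over all tested genes, 19.6% were lower and 19.3% higher against control RNAi, and 18.3% lower and 16.7% higher against control. Summed over the list the level was 74439 to 97137 CPM with dpp RNAi and 82516 to 92783 CPM in the controls, so the total of the list overlapped. Construct #1 had 88098 to 97137 CPM and construct #2 74439 to 83853 CPM. CarT (CG9317), a transporter that recycles the histamine metabolite of photoreceptors, had 88.7 to 102 CPM with dpp RNAi against 116 to 219 CPM in the controls (-0.70 ± 0.04, adjusted p = 2.01e-08), with -1.09 against control RNAi and -0.32 against control.

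Heat-shock protein genes, chaperones that refold proteins, were lower in 8 of 24 tested and higher in 3, where 16.5% and 17.4% of all tested genes were. Hsp70Aa had 6.11, 8.66 and 10.8 CPM with dpp RNAi against 12.5, 18.4 and 123 CPM in the controls (-2.07 ± 0.64, adjusted p = 0.0291). The highest values came from 2 control RNAi libraries, at 71.1 and 123 CPM. The call for Hsp70Aa was lost without any 1 of 8 libraries, among them control RNAi replicate 2 (-1.71, adjusted p = 0.0606), and with the replicate block (adjusted p = 0.0516). Its near-identical copy Hsp70Ab (-1.91 ± 0.64, adjusted p = 0.0421) lost the call without any 1 of 11 libraries (adjusted p up to 0.089). Against control alone neither was called (-1.10 and -0.92). The related genes Hsp70Ba (-0.77), Hsp70Bb (-0.46), Hsp70Bbb (-1.10) and Hsp70Bc (-1.16) were not called against both controls. Hsp83, the Hsp90 chaperone, had 701, 722 and 771 CPM with dpp RNAi against 613, 1092 and 1156 CPM in the controls (-0.48, adjusted p = 0.00564), with overlap. The constitutive Hsc70-4 was separated, with a difference of -0.18.

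**Figure D4:**
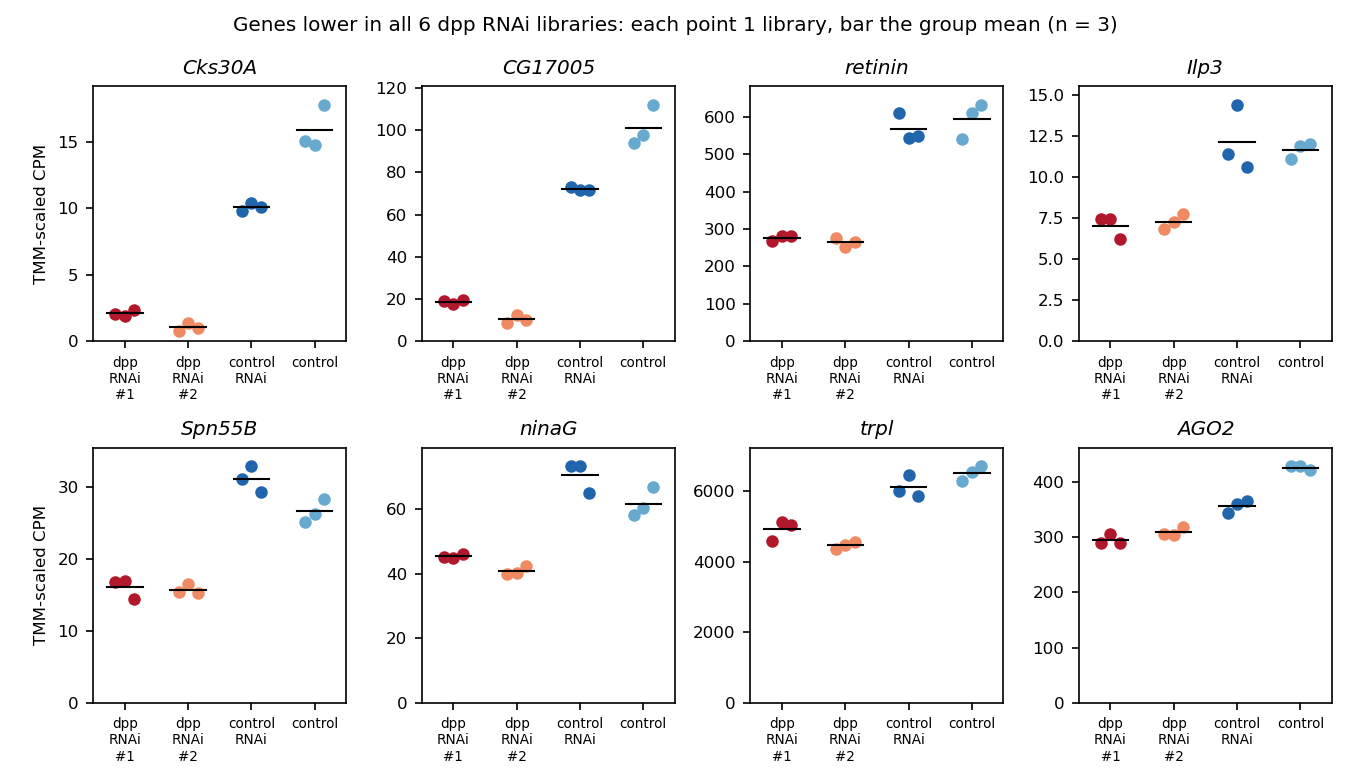
TMM-scaled CPM on a linear scale for 8 separated genes that were lower with dpp RNAi, 1 point per library and a bar at the mean of each group of 3. retinin lies at 252 to 282 CPM with dpp RNAi and at 540 to 632 CPM in the controls, and Cks30A at 0.798 to 2.34 CPM and at 9.84 to 17.8 CPM.

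Of 29 peptide hormone genes tested, 4 were called higher and 4 lower, shares no higher than the 17.4% and 16.5% of all tested genes. Ilp3 and Ilp2, insulin-like peptides of the brain, were among them. Ilp3 had 6.21, 7.35 and 7.76 CPM with dpp RNAi and 10.6, 11.6 and 14.4 CPM in the controls (-0.73 ± 0.08, adjusted p = 1.59e-05), with -0.75 and -0.70 against the 2 controls. Ilp2 had 101, 105 and 113 CPM with dpp RNAi and 72.8, 77.5 and 100 CPM in the controls (0.36 ± 0.07, adjusted p = 0.00131). Both were separated, in opposite directions.

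Downstream of the insulin receptor, chico, its adaptor protein, had 69.4, 72.3 and 75.3 CPM with dpp RNAi against 77.9, 80.4 and 83.6 CPM in the controls (-0.16 ± 0.03, adjusted p = 0.000886). Pi3K92E, the lipid kinase that acts after it, had 69.2, 70.6 and 74.8 CPM with dpp RNAi against 75.1, 81.0 and 92.1 CPM in the controls (-0.21 ± 0.04, adjusted p = 0.00047). Both were separated, as was the transcription factor foxo, which was higher (0.22). InR, the receptor, was called higher (0.37 ± 0.06, adjusted p = 0.00025), but its value was -0.09 against control RNAi and 0.82 against control. Of 18 growth genes tested, 3 were higher and 3 lower, shares close to the 17.4% and 16.5% of all tested genes.

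Several other separated genes were lower. Spn55B (Spn6), a serpin, had 14.4, 16.0 and 17.0 CPM with dpp RNAi against 25.2, 28.9 and 32.9 CPM in the controls (-0.85 ± 0.06, adjusted p = 6.15e-08). AGO2, the Argonaute protein of the RNA interference pathway, had 290, 305 and 318 CPM with dpp RNAi against 343, 393 and 428 CPM in the controls (-0.37 ± 0.05, adjusted p = 2.82e-05). Of 10 genes of that pathway, 1 was higher and 1 lower, where 17.4% and 16.5% of all tested genes were. Ir75a, an antennal receptor for acids, had 5.85, 6.77 and 8.02 CPM with dpp RNAi against 9.55, 10.9 and 12.6 CPM in the controls (-0.66 ± 0.08, adjusted p = 4.21e-05).

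Gasp, a chitin-binding protein of the tracheal lining, stood at -0.46 ± 0.05 (adjusted p = 7.83e-06), and VGAT, the vesicular GABA transporter, at -0.35 ± 0.05 (adjusted p = 0.000179). The gap junction gene Inx7 (-0.97), FarO (CG18031; -1.08), Amnionless (CG11592; -0.82) and the salivary glue gene Sgs1 (-0.90) were separated at low levels, with medians of 0.854 to 5.86 CPM with dpp RNAi and 1.69 to 12.2 CPM in the controls. The uncharacterised genes CG13563 (-1.58) and CG7208 (-1.46) were separated too.

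The BMP pathway itself showed small differences. Of 19 components tested, 6 were called higher and 4 lower, with a median of -0.03, where 17.4% and 16.5% of all tested genes were called. sog, a secreted protein that binds BMP ligands and carries or blocks them, had 108, 118 and 133 CPM with dpp RNAi against 92.5, 97.8 and 105 CPM in the controls (0.27 ± 0.04, adjusted p = 9.72e-05). magu, an extracellular feedback regulator of Dpp spread, had 61.5, 70.5 and 75.9 CPM with dpp RNAi against 55.2, 56.7 and 60.8 CPM in the controls (0.27, adjusted p = 0.00271). Neither overlapped.

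Among the receptors, tkv had 99.5, 106 and 109 CPM with dpp RNAi against 88.5, 93.4 and 97.1 CPM in the controls (0.18 ± 0.03, adjusted p = 0.000376) and was separated. put (-0.10) and wit (-0.16), the type II subunits, were called lower with overlap, and sax (-0.09) was not called. Med, the partner of Mad, had 54.3, 55.6 and 58.5 CPM with dpp RNAi against 48.5, 51.3 and 53.8 CPM in the controls (0.14 ± 0.03, adjusted p = 0.00162). Mad (0.03) was not called. Thus the 4 separated components were all higher, by less than 0.3 on the log2 scale. Over all tested genes, 2.94% were separated upward and 4.17% downward.

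Of 23 genes known as Dpp targets in other fly tissues, 2 were higher and 3 lower, shares of the tested members below the 17.4% and 16.5% of all tested genes. Dad, an inhibitory Smad that Dpp signalling induces in many tissues, had 61.2, 62.8 and 67.7 CPM with dpp RNAi against 62.5, 68.5 and 75.1 CPM in the controls (-0.10, adjusted p = 0.0183), with 0.01 against control RNAi and -0.22 against control. dac, a nuclear factor of leg and eye development, was the 1 separated gene of the list, at 0.25 ± 0.05 (adjusted p = 0.00108). salr (-0.22 ± 0.06, adjusted p = 0.0107) and tup (-0.24 ± 0.07, adjusted p = 0.0141) were called lower with overlap. In the activin branch, which shares type II receptors with the BMP branch, 0 of 6 were higher and 2 lower. These are too few members to set beside the shares of all tested genes. Its ligand gene Actbeta (-0.21 ± 0.05, adjusted p = 0.00186) was at -0.39 against control RNAi and -0.04 against control.

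**Figure D5:**
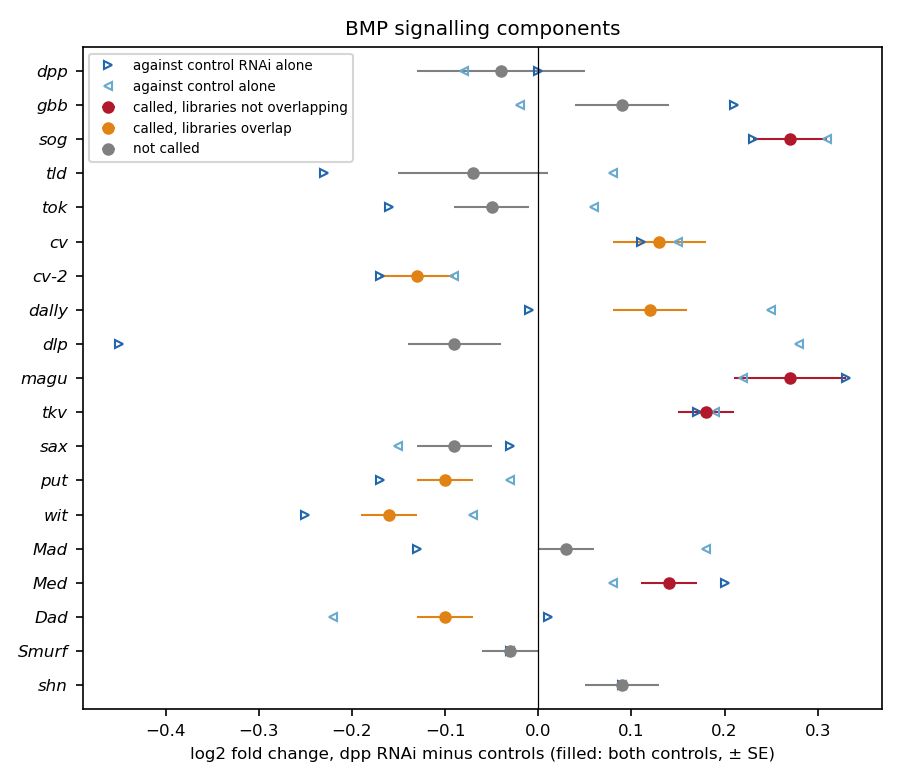
Log2 fold change, dpp RNAi minus controls, of 19 tested BMP components. Filled points with bars give the value against both controls ± SE, and open triangles the values against control RNAi and against control, which for sog are 0.27, 0.23 and 0.31.

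Genes of dopamine and tyrosine metabolism, the subject of the series title, gave no separated member. Over all tested genes 7.11% were separated, so this absence from so short a list is no result about it. Of 16 tested, 4 were called higher and 3 lower, with a median of -0.07, where 17.4% and 16.5% of all tested genes were called. ple, tyrosine hydroxylase and the rate-limiting enzyme of dopamine synthesis, had 100, 120 and 144 CPM with dpp RNAi against 77.5, 108 and 130 CPM in the controls (0.23, adjusted p = 0.0113), with 0.52 against control RNAi and -0.06 against control. Pu, which makes the cofactor of that enzyme, had 193, 206 and 214 CPM with dpp RNAi against 169, 183 and 199 CPM in the controls (0.17 ± 0.04, adjusted p = 0.00289). Ddc, which makes dopamine from DOPA, had 313, 345 and 366 CPM with dpp RNAi against 363, 379 and 408 CPM in the controls (-0.16, adjusted p = 0.015). The overlap of Ddc was narrow, at 363 to 366 CPM.

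In b and e, called higher in the average, the constructs differed. b, which makes beta-alanine for the conjugation of dopamine, was higher (0.42 ± 0.08, adjusted p = 0.00196), more so with construct #2 (0.75) than with construct #1 (0.10; adjusted p = 0.00455 between constructs). e, which joins beta-alanine to dopamine, averaged 55.9 CPM with construct #1 and 111 CPM with construct #2, against 66.3 CPM in control RNAi and 63.0 CPM in control. Its log2 fold change of 0.29 ± 0.07 (adjusted p = 0.00459) is the mean of -0.21, not called, with construct #1 and 0.78 with construct #2 (adjusted p = 1.63e-05 between constructs). DopEcR, a receptor for dopamine and ecdysteroids, was lower (-0.21 ± 0.05, adjusted p = 0.00353), with -0.39 against control RNAi and -0.02 against control.

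Cytochrome P450 genes, many of which break down foreign compounds, included members with wide differences between the constructs. Of 77 tested, 20 were called higher and 12 lower, where 17.4% and 16.5% of all tested genes were. Cyp6a17 was at 36.2 to 44.1 CPM with construct #1 and 1.33 to 2.32 CPM with construct #2, against 42.4 to 54.3 CPM in the controls. Its averaged value of -2.56 ± 0.08 (adjusted p = 3.78e-12) is thus the mean of -0.32 and -4.80, and the libraries of construct #1 overlapped those of the controls. Cyp6a2 was at 38.6 to 42.0 CPM with construct #1 and 189 to 197 CPM with construct #2, against 121 to 151 CPM in the controls, so that the constructs lay on opposite sides of the controls. Cyp49a1 was separated, with 5.72, 6.08 and 7.18 CPM with dpp RNAi against 2.53, 2.88 and 3.74 CPM in the controls (1.05 ± 0.08, adjusted p = 3.76e-07).

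Called genes were spread over all arms. The share of tested genes called was 31.5% on X, 32.8% on 2L, 36.8% on 2R, 32.9% on 3L, 34.6% on 3R and 36.9% on the small chromosome 4. Separated genes were 6.86 to 7.9% of tested genes on the 5 large arms and 1.19% on chromosome 4, which held 84 tested genes. dpp itself lies on 2L, where 7.14% of tested genes were separated.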

How the data were processed

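The authors deposited 1 raw count per gene symbol for each of 15 stranded total RNA libraries. The submitters' processing notes name dm3 as build, and BWA, STAR and HTSeq as tools. Versions, annotation and the strand setting of the counting are not given in the sources used here, so reads of overlapping, antisense and near-identical genes could have been divided in ways the files do not show. HTSeq summary lines, 14.48 to 19.54% of entries in the 12 libraries, were left out. Symbols follow the dm6 annotation (of 15682, 11928 matched by symbol, 143 by letter case and 3206 by synonym, 245 were ambiguous and 160 had no match), used only for names, arms and order, with the symbol of the files in brackets.

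Counts were fitted in R 4.3.3 with edgeR 4.0.16 (filterByExpr, minimum count 10, keeping 10668 genes and leaving out 5014; TMM; robust quasi-likelihood, 5 group means over all 15 libraries, 10 residual degrees of freedom). The 3 dpp overexpression libraries entered only the estimate of spread. A call means a p under 0.05 after Benjamini-Hochberg adjustment across the 10668 genes. CPM are counts per 1e6 scaled by TMM factors. Python 3.11.15 with pandas 2.3.3, numpy 2.4.6, scipy 1.17.1 and matplotlib 3.10.9 read the files and drew the plots. The steps were tested on simulated counts.

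Members, 38 gene lists and the rule for named genes were chosen with earlier results of these data known. No list was tested as a set, and the 22 mitochondrially encoded genes of 1 list did not pass the filter. Named genes were dpp; the separated genes with a mean of at least 1 CPM and the largest log2 fold change, 12 with a symbol and 3 with a CG or CR number in each direction; the 6 overlapping called genes with the widest gap between the controls; and up to 3 members of smallest p in each list. Outside this rule, Cpr49Ab, Cpr49Ae, Cpr72Ec, Fbp2, Lsp2, lab, pb, Dfd, Scr, elav, Dro, Listericin, AttA, AttB, AttC, Tl, BomS5, BomS6, Ggamma30A, Eaat1, inaC, Hsp70Ba, Hsp70Bb, Hsp70Bbb, Hsp70Bc, Hsp83, Hsc70-4, foxo, magu, put, wit, sax, Mad, Dad, apolpp, e, ple and Ddc were named after their values were seen. Alternatives covered the scaling, the filter, DESeq2 1.42.0, the fitted libraries, pooled classes, 1 control or construct alone, a replicate block and leaving out each library.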

Additional observations from a re-analysis of the deposited data

Results flagged for a closer look

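The difference of the dpp RNAi libraries from control RNAi was not the same as that from control in 4823 genes, 45.2% of those tested (edgeR quasi-likelihood test of control RNAi minus control, adjusted p under 0.05). Among them were 87 of the 137 genes chosen by the naming rule. Construct #1 and construct #2 differed in 1283 genes, 25 of them so chosen.

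Of the genes chosen by the rule, 9 were called against both controls in opposite directions, lower against control RNAi and higher against control. Over all tested genes, 567 (5.31%) were called against both controls in opposite directions, in either order, so the 9 describe themselves alone. The log2 gap between the controls, control RNAi minus control, was 9.08 for CG11313, 4.95 for the digestive protease Jon65Aiv, 3.91 for the amine receptor Ir92a, 1.97 for Lsp1beta, 1.49 for the fatty acid desaturase Desat1, 1.43 for Ir76a, 1.42 for the ecdysone-induced factor Eip93F, 1.25 for the clock factor Pdp1 and 0.69 for v, the tryptophan oxygenase of the eye pigment pathway. Cyp6a2 was called in opposite directions with the constructs, with a log2 difference of -2.27, construct #1 minus construct #2.

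Each group held 3 libraries, too few for a test of single outlying libraries. In the 3 dpp overexpression libraries, which entered no comparison here, dpp averaged 66.8 CPM, against 33.5 CPM in control.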

How the results depend on the processing

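Counts of called genes stayed within 1.5 times their value under other scalings, filters, DESeq2 (3638, with 1948 higher and 1690 lower) and a fit of the 12 libraries alone (4067). Upper quartile scaling gave 1682 higher and 2054 lower, and no filter 1567 and 1951. Pooling the groups of each class gave 1219 called genes (578 higher, 641 lower), and construct #1 alone gave 2011 (1127 and 884). Separated genes, compared over fewer libraries, numbered 2885 against control RNAi alone (1405 higher, 1480 lower), 2731 against control alone (1287 and 1444) and 2441 with construct #2 alone (1171 and 1270), and 487 were higher with construct #1 alone. Without 1 library, called genes numbered 3021 to 3507, separated genes 793 to 1027, genes called between the controls 3908 to 4914, and dpp was at -0.07 to -0.00. dpp was at 0.00 against control RNAi alone, and was not called under any alternative.

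No label says that same-numbered libraries belong together, and their deviations from group means correlated at -0.111 to 0.246 over 18 pairs, so the numbers were not taken to pair them. With a replicate block 3629 genes were called (1855 higher, 1774 lower), 4882 between the controls and dpp was at -0.04; of the named genes, Hsp70Aa, Hsp70Ab, babo, wun2 and Cp19 lost their calls.

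Of 127 called named genes, 57 were no longer called with pooled groups, 30 against control alone, 21 against control RNAi alone, 27 with construct #1 alone and 10 with construct #2 alone. Signs turned for 27 values of named genes. Against control RNAi alone these were CG11313 (-0.37), whe (-1.10), CG16826 (-0.99), CG10943 (-0.01), Obp83g (-0.18), Ir92a (-0.59), Ir76a (-0.22), Lsp1beta (-0.30), PPO2 (-0.06), srp (-0.09), Jon65Aiv (-1.03), Desat1 (-0.50), SCAP (0.12), InR (-0.09), puc (-0.02), Pdp1 (-0.23), cwo (-0.02), Eip93F (-0.39) and loqs (-0.01). Against control alone they were CheA86a (-0.14), babo (0.05) and l(2)efl (-0.24). They were babo (0.01) with construct #1 alone, wun2 (0.12), SCAP (0.05) and Cyp6a2 (0.54) with construct #2 alone, and whe (-0.01) with pooled groups. The cause was not tested. Depth limits low genes most in the dpp RNAi libraries, where 3 counts are 0.1339 to 0.2668 CPM before TMM scaling.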

Other observations

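The following 5 separated genes outside the cuticle list were picked from the 314 that were higher, after their values were seen and for their known roles in cuticle. How many such genes there are was not counted, so they describe themselves alone. yellow-d2, a relative of the pigment gene yellow, had 0.982, 2.04 and 2.63 CPM with dpp RNAi against 0, 0 and 0.0905 CPM in the controls (lowest, median and highest of 6; log2 fold change 6.26, edgeR adjusted p = 1.21e-07). Pxd, a peroxidase, had 0.982, 1.75 and 2.16 CPM with dpp RNAi against 0, 0.0401 and 0.0917 CPM in the controls (5.34, adjusted p = 5.38e-08). Both yellow-d2 and Pxd may have passed the filter on low counts only through the dpp RNAi libraries, in which case they had to differ. The chitinase gene Cht10 (Cht3) had 5.46, 6.08 and 7.61 CPM with dpp RNAi against 1.44, 1.76 and 2.48 CPM in the controls (1.71, adjusted p = 7.7e-07). dy, a zona pellucida domain protein that shapes cuticle, and Edg91, a cuticle gene induced by an ecdysone pulse, were higher by 1.81 and 2.36. Among markers of reproductive tissue, 0 of 4 tested ovary genes were higher and 2 lower, and 0 of 2 tested male genes were called. These lists are too short to set beside the 17.4% and 16.5% of all tested genes.

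Sense organ genes split by control. Of 71 odorant and ionotropic receptor genes tested, 9 were called higher and 10 lower in the average, with a median of -0.85 against control RNAi and 0.36 against control. Of 34 odorant-binding proteins, 12 were higher and 2 lower. The neuron list was at -0.28 and 0.33 against the 2 controls, with 2 of 13 tested higher and 1 lower, and the glia list at -0.07 and 0.23, with 2 of 8 higher and 1 lower. The glial factor repo was separated, with 65.6, 75.3 and 75.8 CPM with dpp RNAi against 53.4, 59.0 and 65.6 CPM in the controls (0.31, adjusted p = 1.97e-05), although the nearest libraries of both sides round to the same level. Tracheal (0 higher, 1 lower of 7) and digestive (4 and 0 of 7) markers, lipid metabolism (2 and 3 of 19), the clock (3 and 3 of 10), ecdysone response (6 and 0 of 15), tissue stress (2 and 1 of 14), serpins (4 and 2 of 19), gustatory receptors with ppk channels (5 and 1 of 38), transgene-linked markers (0 and 1 of 4) and sex-linked genes (0 and 4 of 10) gave few or no separated members. Over all tested genes, 17.4% were called higher, 16.5% lower and 7.11% were separated. Beside these shares, the counts of such short lists describe their members alone.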
